A study of Homo sapiens with 4 samples.

Results

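POLR2A HiChIP-seq was used to examine 10 genes whose products form, stabilise or release chromatin loops. They were CTCF, the cohesin genes RAD21, SMC1A, SMC3, STAG1 and STAG2, the cohesin regulators NIPBL and WAPL, and YY1 and LDB1, out of 20046 protein-coding genes of GENCODE 44 on GRCh38. A loop was assigned to a gene when at least 1 of its anchors overlapped the gene body or the 10 kb on either side of it. By this rule the 10 genes held 59 distinct loops of the 77862 in either list, and no loop was assigned to more than 1 of them. HepG2 cells, a human hepatocellular carcinoma line, received sterilized water (mock) or 20 µM pyridostatin (PDS, a small molecule that binds G-quadruplex DNA, or G4) for 24 h. The study made 2 replicates per condition, and all cells were of this 1 line. HiChIP ligates DNA ends that lie close together in fixed nuclei, here after MboI digestion, and then enriches the fragments bound by POLR2A, the largest subunit of RNA polymerase II (RNAPII). Each paired-end tag (PET) is 1 sequenced ligation between a pair of anchors. The data came as 1 combined loop list per condition, so there was no spread between replicates and no test between conditions.

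Cohesin is a ring built from the ATPases SMC1A and SMC3 and the kleisin RAD21, to which either STAG1 or STAG2 binds. The ring draws chromatin through itself into a growing loop. NIPBL loads cohesin and drives this extrusion, WAPL releases the ring from DNA, and CTCF, a zinc finger protein, halts it at its binding sites. YY1, another zinc finger protein, can dimerise and so bring enhancers and promoters together, and LDB1 is an adaptor that self-associates and bridges DNA-bound LIM-domain and GATA complexes. The loops described here are contacts made by the genes for these proteins, and not contacts made by the proteins.

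Sequencing depth is unknown here. Listed loops summed to 254647 PETs for mock and 67001 for PDS, and the smallest count in either list was 3 PETs. An unlisted loop may thus still have held up to 2, or more if loops were also filtered in another way, which is not known. Bounds given below for unlisted loops take 2 PETs as the most. All intervals below are 95% intervals that cover counting error only, and a ratio takes its bounds from a Wilson interval. Intervals of summed PETs treat each PET as independent. PETs enter the sums in lots of at least 3 per listed loop, so these intervals are too narrow. The hepatocyte genes chosen as markers of the cell line (ALB, AFP, APOA1, APOB, TTR, SERPINA1, FGB, TF and HNF4A) had mock loops in 9 of 9 cases, with the most at HNF4A (39 loops). Of the genes of other lineages, PTPRC and HBB had no loop in either list, but GFAP and MYH7 had 5 and 12 mock loops by the same rule. A loop near a gene is therefore not a measure of its expression.

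The 10 genes had 50 loops with 181 PETs in mock-treated cells and 16 loops with 51 PETs in PDS-treated cells. The PDS/mock ratio was 0.320 for loops (interval 0.184 to 0.558) and 0.282 for PETs (0.207 to 0.384). Over all listed loops these ratios were 0.283 and 0.263, both within the intervals of the 10 genes. Of the 10 genes, 9 had a mock loop and 5 had a PDS loop, against 77.3% and 48.0% of all protein-coding genes. Loop numbers were lower in the PDS list at 8 of the 10 genes. WAPL was listed with 4 loops in both conditions, and STAG2 had no loop in either. Across the genome, 92.9% of the 15490 genes with a mock loop had fewer PDS loops. No PDS loop was listed for 4 of the 9 genes with a mock loop (all such genes, 40.3%) and for 2 of the 6 with at least 3 mock loops (27.5%).

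**Figure D1:**
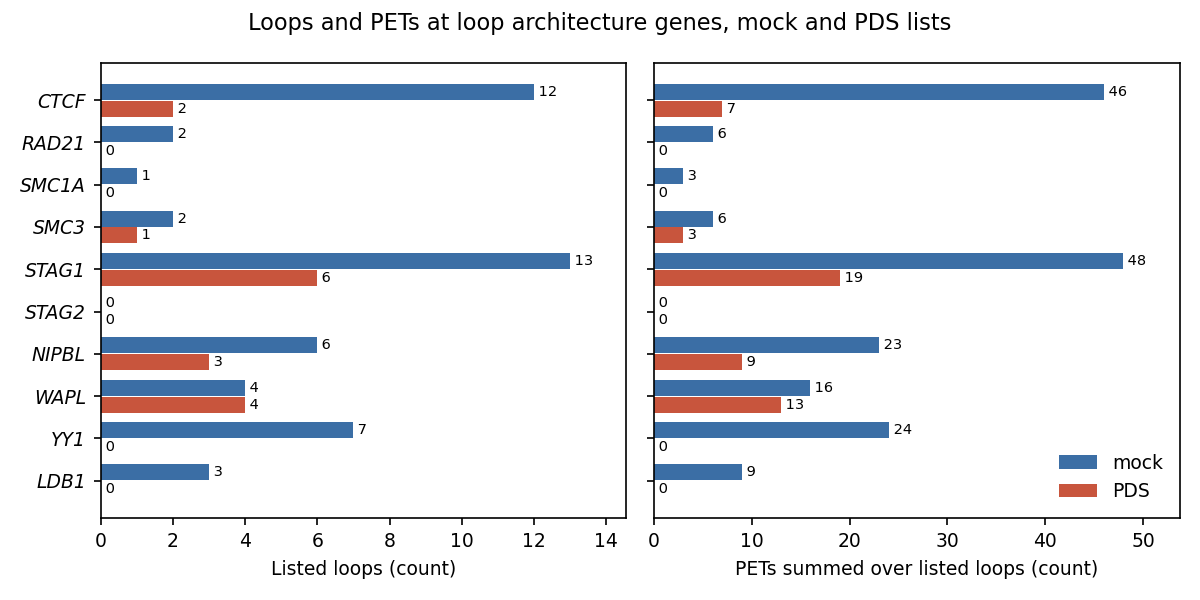
Bars give the number of listed loops (left, count) and the PETs summed over them (right, count) at each of the 10 genes, in blue for mock and red for PDS, with the value at the end of each bar. STAG1 (13 and 6 loops) and CTCF (12 and 2 loops) have the most mock loops, YY1 goes from 7 loops to 0, WAPL has 4 in both lists and STAG2 has none.

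Because longer genes offer more places for an anchor, loop numbers were also set against the length of gene and flanks. In mock-treated cells CTCF had 12.4 loops per 100 kb, YY1 10.9 and LDB1 8.85. RAD21 (4.09), WAPL (3.75), SMC3 (3.43), STAG1 (2.98), NIPBL (2.86) and SMC1A (1.46 loops per 100 kb) were sparser. These values include loops that touched only the flanks. The gene body was touched by 7 of 12 mock loops at CTCF, 6 of 7 at YY1 and 2 of 3 at LDB1. The median of the 9 genes with a mock loop was 3.75 loops per 100 kb, against 6.87 over all protein-coding genes with a mock loop. Without this scaling the median was 4 mock loops per gene in both sets. Both sets hold only genes with a mock loop, which gives short genes a high minimum per 100 kb. The scaled medians are thus not matched for gene length.

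To read changes gene by gene, a gene was counted as lower when its summed mock PETs were at least 2-fold its PDS PETs, with a PDS sum below 3 set to 3. Of the 9 genes with a mock loop, 7 were lower by this rule, against 76.0% of all protein-coding genes with a mock loop. Among genes with at least 3 mock loops the count was 5 of 6, against 92.3%. None of the 10 was at least 2-fold higher after PDS treatment, against 0.970% of all genes with a loop. These shares lie near those of all genes, and nothing particular to the 10 genes can be read from them. The rule takes unlisted loops as 0 PETs. If each mock loop not in the PDS list still held 2 PETs there, none of the 9 genes would be lower by 2-fold, and 8.22% of all genes would. The calls thus rest on the minimum of 3 PETs, LDB1 (9 mock PETs, up to 6 in PDS) and YY1 (24, up to 14) included.

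In order of their PDS/mock loop ratio, YY1, LDB1, RAD21 and SMC1A were at 0, followed by CTCF (0.167), STAG1 (0.462), NIPBL and SMC3 (both 0.500) and WAPL (1.00). The intervals of every pair of these 9 genes overlapped, so no neighbours in this order were separated by more than counting error. For summed PETs, the interval of YY1 (0 to 0.160) lay below those of STAG1 (0.234 to 0.669), NIPBL (0.184 to 0.831) and WAPL (0.397 to 1.66), and that of CTCF (0.0701 to 0.330) below that of WAPL. PETs of unlisted loops are missing from these sums, which could reach 14 for YY1 and 29 for CTCF in PDS. The separation may thus be set by the minimum of 3 PETs. PETs of the same loop are also not independent, so the PET intervals are too narrow to separate genes whose loop intervals overlap.

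**Figure D2:**
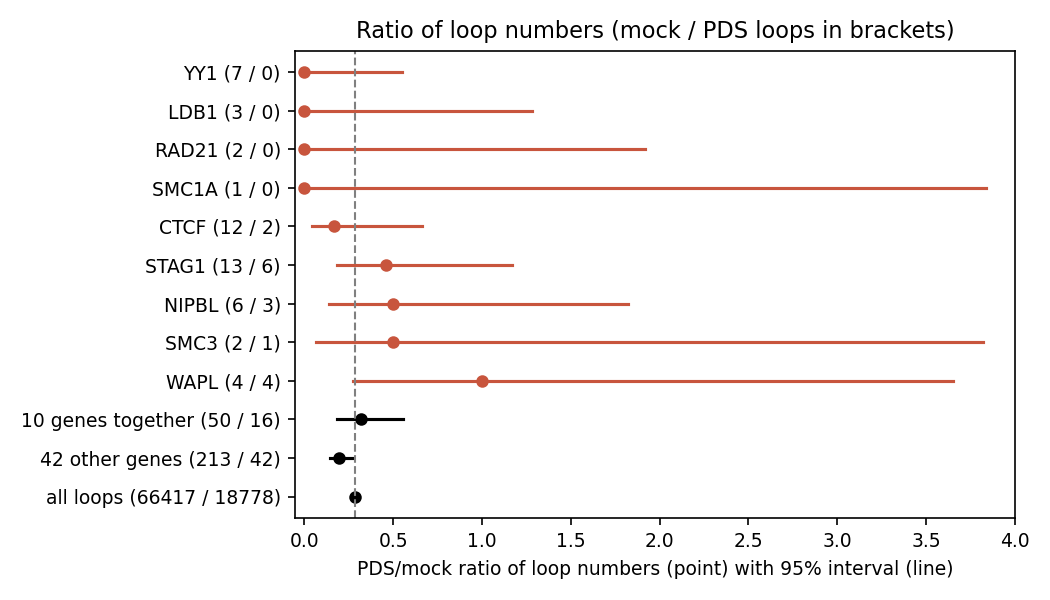
Each point is the PDS/mock ratio in loop count, on a linear axis, and each line its 95% interval, for 9 of the 10 genes (red; STAG2 had no loop), the 10 genes together, 42 other chromatin architecture genes and all loops (black), with mock and PDS loop numbers in brackets. The dashed line marks the ratio of all loops, 0.283, and the interval of each of the 9 genes includes it.

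Promoter sequences of 4 genes are shown to set start sites with mock loops only (YY1 and LDB1, as also seen at STAG1 and NIPBL) beside the start sites with a loop in each list (SMC3 and WAPL). Each sequence is the RefSeq promoter (GRCh38.p14), from 250 bases before to 50 bases after a start site, 5′ to 3′ on the gene's strand. Capitals mark matches to a G4 motif (4 runs of 3 or more G with 1 to 7 bases between runs, on either strand) or to a core motif of YY1 (either strand).
YY1, chr14:100238894-100239193, plus strand: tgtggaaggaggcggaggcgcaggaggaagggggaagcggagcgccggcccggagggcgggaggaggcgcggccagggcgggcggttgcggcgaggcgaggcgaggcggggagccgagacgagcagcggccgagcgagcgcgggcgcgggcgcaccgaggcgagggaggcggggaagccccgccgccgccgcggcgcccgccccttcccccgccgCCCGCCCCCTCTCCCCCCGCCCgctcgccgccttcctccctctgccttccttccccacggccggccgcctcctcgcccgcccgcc
LDB1, chr10:102114953-102115252, minus strand: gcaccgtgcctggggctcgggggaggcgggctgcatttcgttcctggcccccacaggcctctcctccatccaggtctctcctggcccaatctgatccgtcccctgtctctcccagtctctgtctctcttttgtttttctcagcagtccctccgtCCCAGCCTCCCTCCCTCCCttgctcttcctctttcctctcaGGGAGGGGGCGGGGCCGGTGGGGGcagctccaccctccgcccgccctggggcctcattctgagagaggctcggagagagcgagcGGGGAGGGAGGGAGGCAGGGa
SMC3, chr10:110567445-110567744, plus strand: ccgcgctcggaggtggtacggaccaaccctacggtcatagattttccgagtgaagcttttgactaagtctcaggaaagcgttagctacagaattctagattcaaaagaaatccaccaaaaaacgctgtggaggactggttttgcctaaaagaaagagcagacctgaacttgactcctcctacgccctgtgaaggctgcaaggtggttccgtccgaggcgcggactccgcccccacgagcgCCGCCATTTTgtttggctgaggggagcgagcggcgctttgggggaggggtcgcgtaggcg
WAPL, chr10:86521743-86522042, minus strand: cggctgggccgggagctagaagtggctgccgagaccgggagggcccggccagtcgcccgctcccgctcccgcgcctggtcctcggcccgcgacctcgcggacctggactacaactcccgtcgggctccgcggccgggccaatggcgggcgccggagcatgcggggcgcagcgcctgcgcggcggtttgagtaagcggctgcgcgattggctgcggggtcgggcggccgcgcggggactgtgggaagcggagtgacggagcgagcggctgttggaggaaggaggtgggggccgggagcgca
The YY1 promoter held 1 G4 motif, on the opposite strand, and that of LDB1, which belongs to a RefSeq start site downstream of the canonical GENCODE one, held 3. The marked letters of the SMC3 promoter are a YY1 motif just before the start site, and WAPL had no match to either motif. The promoters of STAG1 and NIPBL (not shown), whose start sites also had mock loops only, likewise held neither motif. Start sites with mock loops only were therefore not set apart by the G4 motif. Over all 35116 RefSeq promoters, 25.0% held the G4 motif and 3.62% the YY1 motif. RAD21 had no entry in the promoter table.

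YY1 (ENSG00000100811, chr14:100238298-100282788, plus strand) had 7 mock loops with 24 PETs and none in the PDS list. The mock loops formed a chain of neighbouring anchors from 16.8 kb upstream of the promoter into intron 1 and exon 2. The promoter anchor, chr14:100238001-100241440, holds the canonical start site and coding exon 1, and had 3 mock loops. It was joined to an upstream anchor at chr14:100220836-100224991 with 4 PETs. It reached a second upstream anchor, at chr14:100232104-100236414, with 3 PETs, and intron 1 at chr14:100243719-100248359, also with 3 PETs. The strongest loop, with 5 PETs, lay within intron 1, where chr14:100243719-100248359 met chr14:100250500-100258912, which carries an internal start site of YY1. That anchor also reached exon 2 with 3 PETs, and both upstream anchors met each other with 3 PETs. A longer loop of 58.9 kb with 3 PETs ran from intron 2 to an anchor overlapping WARS1 and SLC25A47. None of these counts exceeded 5 PETs. Of 813 protein-coding genes with exactly 7 mock loops, 21.9% also had none after PDS treatment, and on chromosome 14 this share was 32.1% of 28 genes. The promoter anchor of YY1 had the highest G+C content of the anchors at these genes (66.7%), with 6 G4 motifs and 3 YY1 motifs.

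LDB1 (ENSG00000198728, chr10:102106489-102120368, minus strand) had 3 mock loops with 3 PETs each and none after PDS treatment. In 1 of them the anchor of the canonical start site and exon 1, chr10:102112353-102122687, met that of exons 2 to 11, chr10:102100118-102111801. Their midpoints were 11.6 kb apart. These anchors lie almost end to end and cover nearly all of the gene, so which parts of it met is not resolved. The anchor of exons 2 to 11 also reached chr10:102079853-102086598, 22.7 kb away. The other loop lay in the upstream flank and ended at the start site of PPRC1, a transcriptional coactivator gene. The promoter anchor held 18 G4 motifs and the anchor of exons 2 to 11 held 7. At 3 PETs, each of these loops may differ from an unlisted one by 1 PET, so a change was not detectable at this depth.

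CTCF (ENSG00000102974, chr16:67562467-67639177, plus strand) had 12 loops in mock-treated cells (46 PETs) and 2 in PDS-treated cells (7 PETs). The canonical start site itself was in no anchor of either list. Of the 12 mock loops, 5 touched only the flanks, at start sites of the neighbouring genes RIPOR1 and CARMIL2. They included the strongest, which joined CARMIL2 to the start sites of ACD, ENKD1 and PARD6A with 8 PETs. The RIPOR1 anchor at chr16:67541378-67553696 had 4 mock loops with 15 PETs, to RIPOR1 on the upstream side and to GFOD2 and RANBP10 up to 199 kb downstream, and no PDS loop. The other 7 mock loops touched the gene body, and 3 of them reached from CTCF to distant genes. These went to RANBP10 (118 kb), DUS2 (365 kb) and SLC7A6 (685 kb, the longest loop of the 10 genes), with 3 PETs each, and none was in the PDS list. The loop listed in both conditions lay in intron 2, between chr16:67573383-67576071 and chr16:67579206-67581999, and had 3 PETs in mock and 4 in PDS. It was the only shared loop of the 10 genes with a higher count after PDS treatment. The other PDS loop, with 3 PETs, joined an internal start site in intron 2 to an anchor at RIPOR1 92.3 kb upstream, which had 2 mock and 4 PDS loops in all. With only the gene body counted, CTCF had 7 mock and 2 PDS loops.

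The cohesin genes RAD21, SMC1A, SMC3, STAG1 and STAG2 together had 18 mock loops and 7 PDS loops (ratio 0.389, interval 0.167 to 0.908). Most of these loops belonged to STAG1, which binds the ring. STAG1 (ENSG00000118007, chr3:136336236-136752403, minus strand) had 13 loops in mock-treated cells (48 PETs) and 6 in PDS-treated cells (19 PETs), of which 3 were shared. Both anchors lay within the gene and its flanks for 11 of the 13 mock loops and for all 6 PDS loops. The strongest loop, within intron 4 between chr3:136570553-136580030 and chr3:136581212-136587730, had 8 PETs in mock and 3 in PDS. The shared loop from intron 6 to intron 5, between chr3:136529306-136540375 and chr3:136543036-136555459, had 4 and 3 PETs. The shared loop from intron 15 to exon 14, between chr3:136435239-136442847 and chr3:136444312-136452574, had 3 in both. The anchors of all PDS loops of STAG1 lay at least 164648 bp downstream of the canonical start site. The anchor of exon 2, chr3:136627784-136639614, had 4 mock loops with 14 PETs to intron 1 and intron 2 and no PDS loop, which was also the case for 43.4% of all anchors with exactly 4 mock loops. In contrast, the intron 5 anchor at chr3:136543036-136555459 went from 1 mock loop with 4 PETs to 3 PDS loops with 10 PETs. Only 0.202% of all anchors with exactly 1 mock loop had 3 or more PDS loops, and this anchor, like the others given with such shares, was picked after its values were seen. Of the 82 anchors of these loops with a mock loop, 3 had more PDS than mock loops, against 1.48% of all such anchors. Their membership depended on the loops themselves. The promoter anchor of STAG1, which also holds the start of the divergent transcript STAG1-DT, had 1 mock loop of 3 PETs to IL20RB, 262 kb away, and no PDS loop.

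The genes of the ring itself had few loops. SMC3 (ENSG00000108055, chr10:110567684-110606048, plus strand) had 2 mock loops and 1 PDS loop of 3 PETs each. The promoter anchor, chr10:110565360-110577833, spans exons 1 to 5 and met a region 17.4 kb upstream in mock and a different region 24.9 kb upstream in PDS. The remaining mock loop lay downstream of the gene. RAD21 (ENSG00000164754, chr8:116845934-116874776, minus strand) had 2 mock loops of 3 PETs each, and both touched only its flanks, 1 of them inside the neighbouring gene UTP23. SMC1A (ENSG00000072501, chrX:53374149-53422728, minus strand) had 1 mock loop of 3 PETs, at HSD17B10 in its flank. None of these was listed for PDS. Thus neither RAD21 nor SMC1A had a loop in its own body in either list.

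STAG2 (ENSG00000101972, chrX:123960212-124422664, plus strand), the alternative partner of the ring, had no loop in either list although it is 462453 bp long, slightly longer than STAG1. Among the 511 protein-coding genes of at least 400 kb, 24.1% had no loop, whereas 92.1% of the 859 genes of chromosome X had none. The whole chromosome X held 75 mock and 10 PDS loops, and the absence of loops at STAG2 and in the body of SMC1A was thus shared with most genes of that chromosome.

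NIPBL and WAPL, which act on cohesin in opposite ways, together had 10 mock and 7 PDS loops (ratio 0.700, interval 0.276 to 1.78). NIPBL (ENSG00000164190, chr5:36876769-37066413, plus strand) had 6 loops in mock-treated cells (23 PETs) and 3 in PDS-treated cells (9 PETs). Within intron 1 a loop of 36.7 kb, between chr5:36905419-36912737 and chr5:36941308-36950214, had 4 PETs in mock and 3 in PDS. Towards the 3′ end, intron 34 at chr5:37038990-37042212 met exons 35 to 42 at chr5:37043172-37052431 with 5 and 3 PETs. The loops of the 5′ end were in the mock list only. There an upstream anchor, chr5:36861509-36872801, met the promoter anchor with 3 PETs and intron 1 with 5 PETs. In all it had 3 mock loops with 11 PETs and no PDS loop. The third PDS loop, with 3 PETs, joined intron 6 to exon 9 and was not in the mock list.

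WAPL (ENSG00000062650, chr10:86435256-86521792, minus strand) was the only gene of the 10 with loops in both lists and no lower loop number in PDS. It had 4 loops in both lists, with 16 PETs in mock and 13 in PDS, and the ratio of 1.00 had an interval of 0.274 to 3.65, which includes the ratio of all loops. Of the 10505 genes with at least 3 mock loops, 1.46% had as many or more PDS loops. That set takes in genes with more mock loops than WAPL, so the share is not matched to it. With 20 kb either side WAPL had 6 mock and 5 PDS loops. With the gene body only it had 3 mock and 4 PDS loops, and with start-site anchors 1 and 2. Its equal numbers thus depended on the rule that assigns loops, and the difference went in both directions. Only 1 loop was the same in both lists. It joined intron 2 at chr10:86508981-86515035 to exons 3 and 4 at chr10:86488962-86501222, with 5 PETs in mock and 3 in PDS. The anchor of exons 3 and 4 had 1 loop in mock (5 PETs) and 3 in PDS (9 PETs). The partners listed for PDS only were exon 17, 51.3 kb away, and an anchor at the start sites of ADIRF, MMRN2 and SNCG, 469 kb away, with 3 PETs each. At the promoter anchor, chr10:86519241-86525483, the mock list had a loop of 3 PETs to a region 13.1 kb upstream and the PDS list 1 of 4 PETs to a region 23.9 kb upstream. Each of these counts lies at or next to the minimum of 3 PETs.

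**Figure D3:**
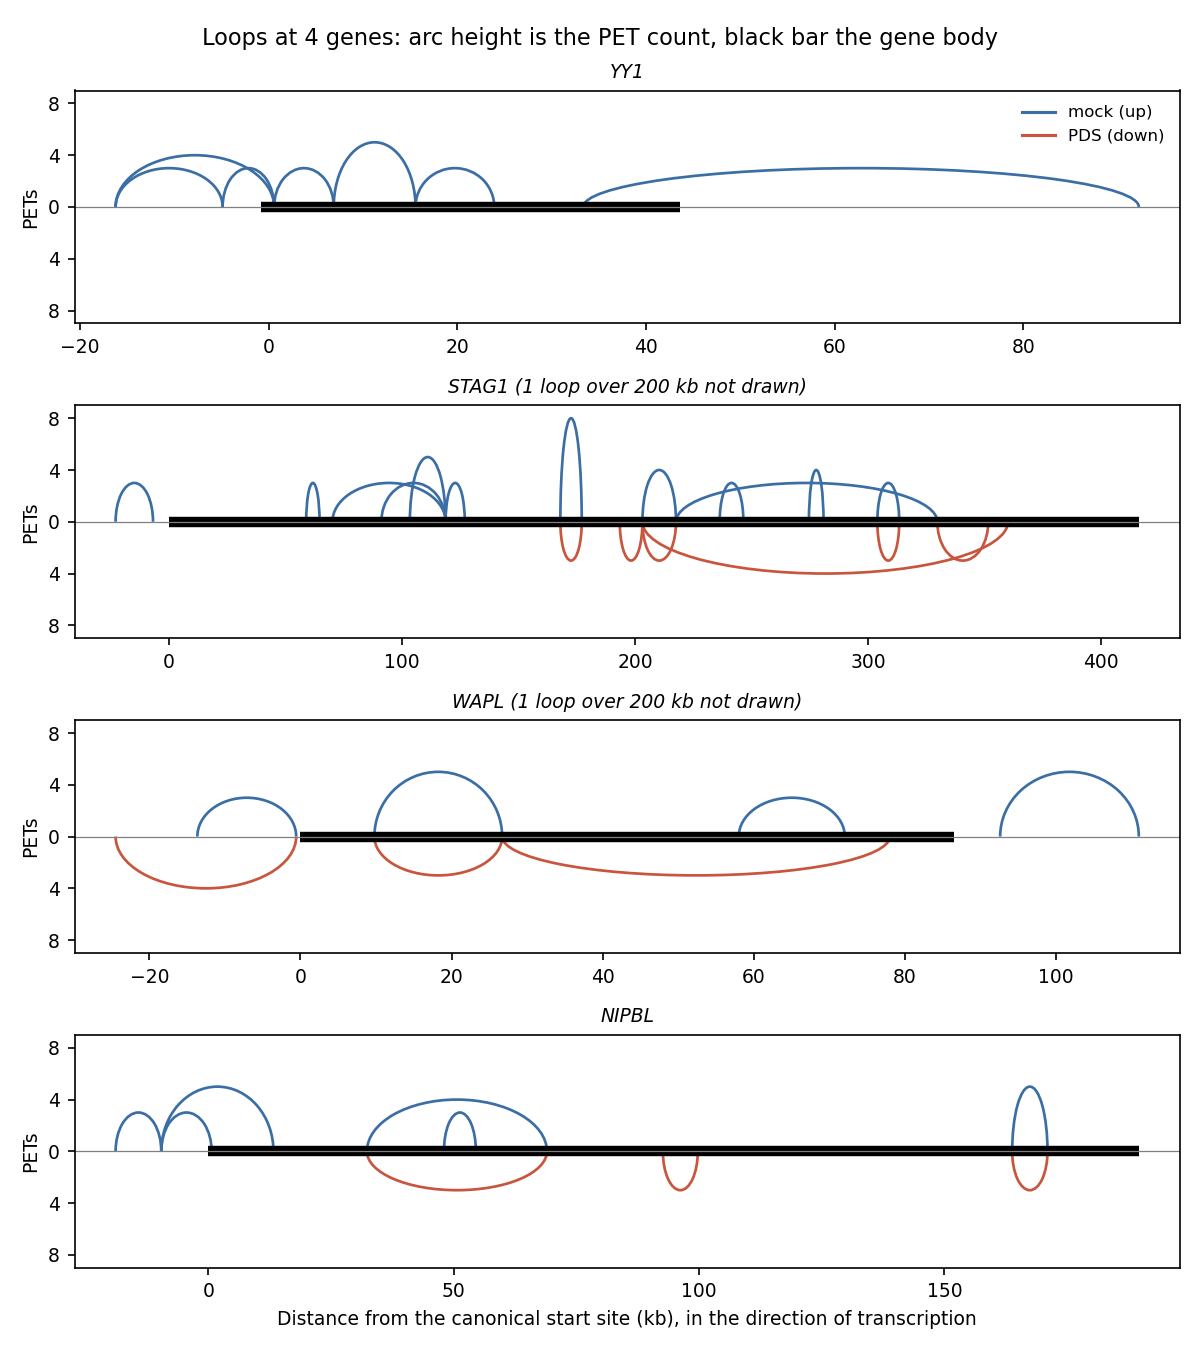
Arcs join the anchor midpoints of listed loops at YY1, STAG1, WAPL and NIPBL, drawn upwards for mock (blue) and downwards for PDS (red), with the arc height giving the PETs. The horizontal axis is the distance from the canonical start site in kb along transcription, the black bar is the gene body, and the loops of 262 kb at STAG1 and 469 kb at WAPL are not drawn. YY1 has arcs in mock only, the PDS arcs of STAG1 lie in the later part of the gene, and WAPL has arcs of both kinds around its promoter and exons 3 and 4.

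Across the 10 genes, 7 loops were listed for both conditions, all with identical anchors. They made up 14% of the 50 mock loops (interval 6.95 to 26.2%). Of the 16 PDS loops they made up 43.8% (23.1 to 66.8%). Over all loops these shares were 11% and 39.1%. They belonged to STAG1 (3 loops), NIPBL (2), CTCF and WAPL (1 each), and 32.4% of all genes with a mock loop also had a shared one. Every shared loop had both anchors within the gene and its flanks, and none used a canonical start site. Their PETs summed to 32 in mock and 22 in PDS, with 5 lower, 1 equal and 1 higher after treatment. Over all 7333 shared loops, 4057 were lower (55.3%, within the 35.9 to 91.8% interval of the 10 genes), and the PET ratio was 0.755 against 0.688 here. A mock loop of 3 PETs was also in the PDS list in 2 of 34 cases (5.88%), and a mock loop of at least 5 PETs in 3 of 9 (33.3%). Over all loops these shares were 5.97% and 26.8%, inside the intervals of the 10 genes (1.63 to 19.1% and 12.1 to 64.6%). The other 9 PDS loops had 3 or 4 PETs and were not in the mock list.

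Loops were also sorted by where their anchors lay on the gene. In mock-treated cells, 15 loops had an anchor within 1 kb of a start site of the gene, 21 had an anchor elsewhere in the body and 14 touched only the flanks. In PDS-treated cells these numbers were 5, 11 and 0. The ratio was 0.444 for loops in the body or at start sites (interval 0.249 to 0.794) and 0 for flank loops (0 to 0.274), so the intervals overlapped. An anchor of a mock loop lay within 1 kb of a start site at 7 of the 10 genes, against 59.8% of all protein-coding genes. At canonical start sites the lists held 8 mock loops (YY1 3, and STAG1, NIPBL, WAPL, SMC3 and LDB1 1 each) and 2 PDS loops (WAPL and SMC3). A start site of another protein-coding gene lay at an anchor of 8 mock loops and 2 PDS loops. The median distance between anchor midpoints was 12.3 kb in mock and 19.4 kb in PDS, against 17.4 and 17.2 kb over all loops. Loops of up to 20 kb made up 72.0% of the mock loops of the 10 genes (interval 58.3 to 82.5%), above the 54.8% of all mock loops, and 8 of the 16 PDS loops.

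The G4 motif was present in at least 1 anchor of 76.0% of the mock loops of these genes (interval 62.6 to 85.7%), close to the 75.2% of all mock loops. In the PDS list it was 8 of 16 loops (28.0 to 72.0%), below the 75.5% of all PDS loops. Of loops with a motif, 38 were listed for mock and 8 for PDS, a ratio of 0.211 (0.0999 to 0.443). Of loops without a motif, 12 were listed for mock and 8 for PDS, a ratio of 0.667 (0.280 to 1.59). The intervals overlapped. Over all listed loops the ratios with and without a motif were 0.284 and 0.280. Of the 7 shared loops, 4 had no motif in either anchor (57.1%, interval 25.0 to 84.2%), against 21.3% of all shared loops. Mock loops with a motif were also listed for PDS in 7.89% of cases (2.72 to 20.8%) and those without in 33.3% (13.8 to 60.9%), with overlapping intervals. Over all loops these shares were 11.5% and 9.50%. The motif was unevenly spread over the genes. It was present in 20 of 22 mock loops of CTCF, YY1 and LDB1 (90.9%, ratio of loops 0.0909). At the cohesin genes, STAG1 included, it was in 14 of 18 (77.8%), and at NIPBL and WAPL in 4 of 10 (40.0%). Gene and motif thus cannot be told apart with these loops. Summed PETs of CTCF, YY1 and LDB1 had a ratio of 0.0886 (0.0417 to 0.188). This interval lay below those of the cohesin genes (0.349, 0.216 to 0.565) and of NIPBL and WAPL (0.564, 0.336 to 0.946). The intervals of the loop ratios overlapped. With 2 PETs for each mock loop not in the PDS list, these PET ratios could be as high as 0.620, 0.825 and 0.923. The size of the separation thus depends on the minimum of 3 PETs. The PET intervals also take PETs of the same loop as independent and are too narrow, so no separation is read from them. The motif is a reading of the reference sequence, and folded G4 was not analysed here. For a core motif of CTCF (either strand), 22.5% of the 89 anchors of these loops had a match, near the 20.3% of all anchors. The YY1 motif was found in 14.6% (8.74 to 23.4%), against 23.8%.

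**Figure D4:**
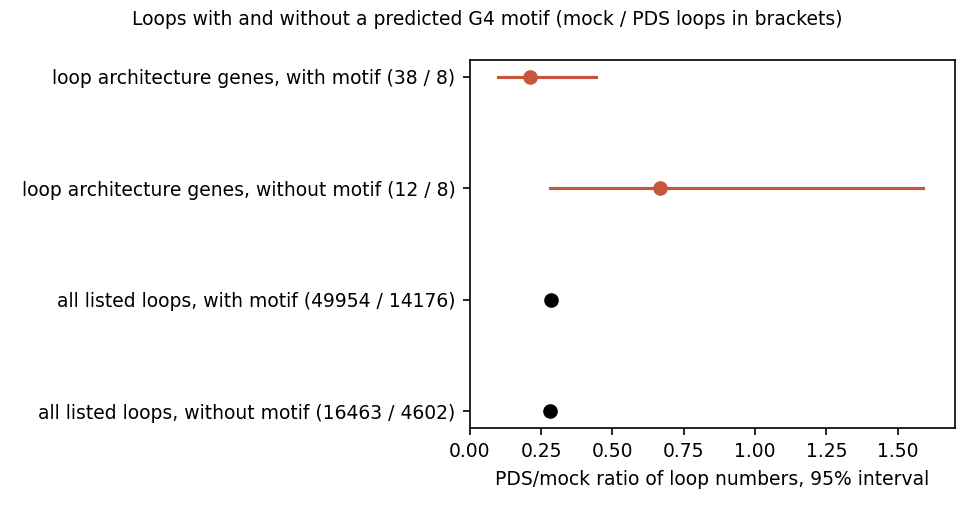
Each point is the PDS/mock ratio in loop count and each line its 95% interval, for loops with and without a predicted G4 motif in at least 1 anchor, at the 10 genes (red) and over all loops (black, interval narrower than the point), with mock and PDS loop numbers in brackets. At the 10 genes the ratios are 0.211 and 0.667 with overlapping intervals, and over all loops 0.284 and 0.280.

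Of 42 other genes of chromatin architecture, among them the remaining cohesin cofactors, meiotic cohesin genes, condensin genes and partners of LDB1 and YY1, 32 had a mock loop. All 32 had fewer PDS loops, 30 were lower by the 2-fold rule and none was higher. Of all protein-coding genes with a mock loop, 92.9% had fewer PDS loops and 76.0% were lower. Of all genes with a loop, 0.970% were higher. Among all genes with at least 3 mock loops, 92.3% were lower. The 32 genes had a median of 5 mock loops, against 4 over all genes with a mock loop. The share of 76.0% is thus not matched to them in loop number. Their windows held 213 mock and 42 PDS loops, a ratio of 0.197 (interval 0.142 to 0.274) whose interval overlaps that of the 10 genes and lies below the 0.283 of all loops. The most mock PETs were at REC8, the meiotic kleisin (68 mock and 6 PDS PETs), and CTCFL, the germline paralog of CTCF (64 and 14). Cofactors of cohesin, chosen after their values were seen, had 26 and 9 PETs at MAU2, the partner of NIPBL, 51 and 6 at PDS5A, and 19 and 0 at PDS5B, the partners of WAPL. The other 10 genes had no loop in either list, of which 7 were autosomal and 3 on chromosome X. Among all protein-coding genes, 20.8% had no loop in either list.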

How the data were processed

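POLR2A HiChIP-seq was carried out on HepG2 cells treated with water (mock) or 20 µM PDS for 24 h, with 2 replicates per condition and 4 libraries in all. Per the labels and the methods, the authors ran HiC-Pro (3.1.0) on 100 bp read pairs, which covered alignment to GRCh38, removal of duplicates and matching to MboI fragments. They deposited whole-number counts of PETs per loop without normalization, in 1 list per condition. The tool that listed the loops and the way replicates were combined are not given in the sources used here. Samples were grouped by the condition in their titles.

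Genes and start sites were those of GENCODE 44, and anchors are printed in 1-based coordinates. All 89 anchors of the described loops had an MboI site at both ends in the reference, as had 81737 of the 81742 anchors of both lists. Loops were shared when both anchors overlapped by at least 1 bp. Genes named were the 10 genes, coding genes with a start site within 1 kb of a partner anchor, and, from 42 other genes, the 3 with most mock PETs and any called higher. Some items that these rules name are not reported here. Genes whose body an anchor overlapped were named after the loops were seen. The genes and lists were chosen with earlier results of these data known. Ratios and shares have 95% Wilson intervals (scipy 1.17.1), and functions were tested on simulated data. Python 3.11.15, numpy 2.4.6 and matplotlib 3.10.9 were used. Alternatives covered flank width, PET minimum, start-site anchors, overlap rule and motif definition.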

Additional observations from a re-analysis of the deposited data

How the results depend on the processing

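No paired analysis was possible because each condition was deposited as 1 combined list, and the replicate block and the omission of replicates were therefore not run. Of 41 alternatives to the main values, 30 stayed within the main interval or within 1.5 times the main count. Among these 30 is the omission of STAG2, which had no loop and so could not change the ratio. The ratio of loop numbers ran from 0.188 (at least 4 PETs) to 0.444 (gene body only), and from 0.261 (without WAPL) to 0.372 (without YY1) when 1 gene was left out. Without the flank anchors at start sites of other genes it was 0.364. With 2 PETs added for each mock loop not in the PDS list, the PET ratio was 0.757. Both settings were chosen after seeing the data. At a minimum of 5 PETs no PDS loop was left at the 10 genes, so the ratios of loops and of PETs and the share of shared loops were all 0 (from 9 mock loops). The PET ratio moved to 0.395 with the gene body only and to 0.152 at a minimum of 4 PETs. Divided by the total of each list it was 1.07, which is set by those totals. The number of genes with fewer PDS loops was 5 with the gene body only and 5 with start-site anchors. Under both of these settings RAD21 and SMC1A had no loop and SMC3 had 1 loop in each list. WAPL had more PDS than mock loops under both (3 mock and 4 PDS loops, and 1 and 2). With 20 kb either side, 9 genes had fewer PDS loops, WAPL (6 mock and 5 PDS loops) included. With anchors extended by 5 kb, 13 mock loops were shared in place of 7. With at least 5 runs of G, the motif was in 48.0% of mock and 18.8% of PDS loops. Of 30 alternatives at single genes, 28 stayed within the main interval and 2 moved to 0 PDS loops (STAG1 at start sites and SMC3 with both anchors near the gene). Main intervals of single genes were wide (0.274 to 3.65 at WAPL), so staying within them is a weak check. Most counts were 3 to 5 PETs, which limits each statement on a single loop.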
